A study of Mus musculus with 22 samples.

Results

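The response to the methionine/choline deficient (MCD) diet was measured in livers that lack Flcn in hepatocytes, by comparing 6 liver-Flcn-/- mice on the MCD diet with 5 liver-Flcn-/- mice on chow. These 11 libraries are all those labelled FLCN KO among the 22 of the series, 1 library per mouse, and the remaining 11 are Cre mice on chow (6) and on the MCD diet (5). Liver-Flcn-/- mice were homozygous for the floxed allele (Flcn f/f) and carried 1 Albumin-Cre transgene, whose promoter is active in hepatocytes, so that the other cells of the liver keep the gene. Cre mice carried Albumin-Cre with Flcn WT/WT, and all were C57BL/6 mice of both sexes, as read from the counts. All mice, on chow and on the MCD diet, began their diet at 6 weeks of age and were fed it for 6 weeks, so that the groups were of the same age. The chow had 10% of its energy as fat and came from another supplier than the MCD diet, so that the lack of methionine and choline and the remaining differences in formula cannot be told apart. Of 55573 genes in the table, the 14062 whose counts averaged 10 or more across the 22 libraries were described.

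Flcn encodes folliculin, which acts at the lysosome as a GTPase-activating protein for RagC and RagD and so lets mTORC1 restrain the transcription factors TFEB and TFE3. Methionine supplies S-adenosylmethionine, and both methionine and choline feed the synthesis of phosphatidylcholine, which hepatocytes need to export triglyceride in very low density lipoproteins. Animals fed without both store fat in the liver and lose weight, and the diet is widely used as a model of steatohepatitis.

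Flcn itself was at 24.2, 20.0, 16.7, 19.4 and 21.8 CPM (normalised read counts per unit of library size, scaled by TMM, edgeR's correction for library composition) in the 5 livers on chow and between 17.6 and 32.6 CPM with a median of 26.6 on the MCD diet. The ranges overlapped, and the log2 fold change with MCD was 0.35 ± 0.17 (SE, adjusted p = 0.10). Cre mice had a mean of 31.7 CPM on chow and 29.2 CPM on MCD. Against Cre mice Flcn was lower on chow (log2 difference -0.63, adjusted p = 0.025) and did not pass on MCD (-0.17, adjusted p = 0.57). The deletion takes out an exon and not the whole gene, and the counts include cells that keep it, so this level checks the labels only in part.

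Library depth was 13751347 to 19645473 counts on chow (median 18282455) and 16616132 to 20706657 on MCD (median 19039129.5). Xist and 4 Y-linked genes (Ddx3y, Kdm5d, Eif2s3y and Uty) divided the liver-Flcn-/- mice into 2 males (replicates 1 and 3) and 3 females on chow and 3 males (replicates 1, 2 and 4) and 3 females on MCD. The labels give no sex. The 2 male chow livers were also the only liver-Flcn-/- libraries with a low share of uniquely mapped reads in the study's library statistics, so on chow sex and this share cannot be told apart. Chow replicate 2, a female by Xist (370 CPM), held Y-linked RNA at 15.1% of the male median, and chow replicate 4 and MCD replicate 3 held 6.64% and 6.81%. MCD replicate 3 also held RNA of 8 skeletal muscle markers at a sum of 56.0 CPM, against 0.93 to 11.4 CPM in the other 10 livers. It had 74 counts of Prss2, an exocrine pancreas gene, against 0 or 1 in the others. Without chow replicate 2 and MCD replicate 3, an alternative chosen after the data were seen, 2577 genes were higher and 2695 lower on MCD, where all 11 libraries gave 3162 and 3166. Of the 8 hepatocyte markers 6 were lower on MCD and none was at 0, and Alb was the most abundant. Lower levels of a cell type's genes can come from fewer such cells or from less RNA per cell, which bulk libraries cannot tell apart.

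On the MCD diet 3162 genes were higher and 3166 lower at an adjusted p under 0.05, which is 22.5% and 22.5% of the genes tested and 45% together. Of these, 792 rose and 1027 fell by more than a log2 fold change of 1. Chow and MCD libraries did not overlap for 4104 genes, or 29.2%, and 4020 of these were among the called. The first principal component of the 11 libraries held 57.8% of the variance and separated the diets, with chow livers from -61.9 to -42.8 and MCD livers from 40.3 to 50.5. The second, with 14.2%, separated the sexes on both diets, with males at 35.8 and 46.1 and females from -40.3 to -22.1 on chow, and males from 6.56 to 13.2 and females from -13.5 to -1.30 on MCD. The even split of calls depends on the scaling: with library totals alone 5803 genes were higher and 1731 lower, because that scaling moved the median of all genes from 0.00 to 0.27 on the log2 scale. TMM factors were 0.919 to 0.969 on chow and 1.06 to 1.16 on MCD, and Scd1 with the Mup, Serpina1 and Serpina3 genes took 2.98 to 6.14% of counts on chow and 0.577 to 0.784% on MCD. Changes are therefore given relative to the bulk of genes.

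**Figure D1:**
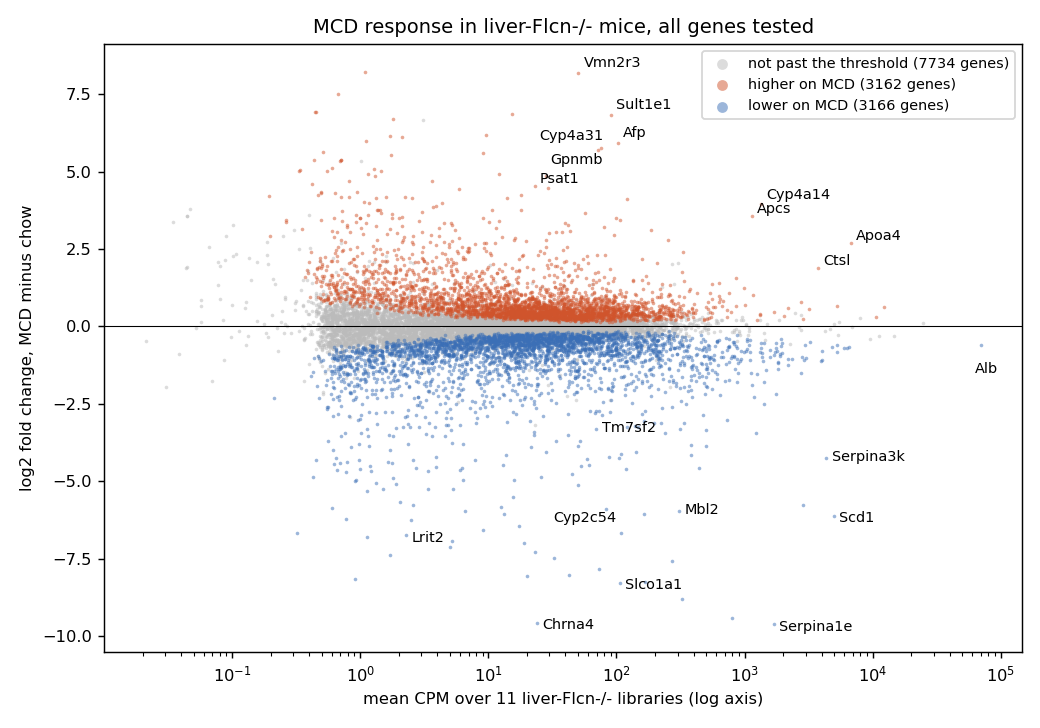
Each point is 1 of 14062 genes, with its mean CPM over the 11 liver-Flcn-/- libraries on a log axis and its log2 fold change between MCD and chow. The 3162 higher genes (orange) and 3166 lower genes (blue) lie around 0, and among abundant genes Serpina1e, Scd1 and Serpina3k lie at -9.62, -6.13 and -4.26.

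The genes with the largest rises were near 0 on chow. Krt20, a keratin of simple epithelia, had 0 counts in all 5 chow livers and 269 over the 6 MCD livers, at least 68.7-fold higher on library totals against a floor of 3 counts over the group, and its call was lost with limma-voom (adjusted p = 0.055). Vmn2r3, annotated as a vomeronasal receptor, was at 0, 0.0594, 1.14, 0.11 and 0.269 CPM on chow and at 49.4 to 143 CPM (median 79.0) on MCD. It rose on the log2 scale by 8.19 ± 0.54 (SE, adjusted p = 2.7e-10). Sult1e1, the estrogen sulfotransferase, rose by 6.82 ± 0.69 (SE, adjusted p = 9.8e-08) from 0.356 to 3.09 CPM on chow to 102 to 262 CPM. Its relative Sult2a3 rose by 6.86 (adjusted p = 0.00077) and Coro6, a coronin that binds actin, by 6.17 (adjusted p = 6.8e-10). Cyp4a31, of the fatty acid omega-hydroxylases, rose by 5.71 (adjusted p = 2.9e-11), with MCD livers at 88.1 to 158 CPM. Gm42711 (a lincRNA), Zbed4-ps1 and Gm7575 (processed pseudogenes) and Gm34653 (annotated as protein-coding) had 2, 3, 4 and 2 counts over the chow livers and 411, 376, 490 and 252 over the MCD livers. Among the largest rises in level were those of Apoa4, an apolipoprotein of triglyceride-rich particles, Ahsg (fetuin A), Ctsl (cathepsin L) and Cyp4a14.

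The largest fall among the named genes was that of Serpina1e, a protease inhibitor of the alpha-1-antitrypsin family, which was at 8600, 1510, 7930, 558 and 50.5 CPM on chow and at 2.17 to 12.6 CPM (median 3.62) on MCD. The groups did not overlap, with a log2 difference of -9.62 ± 1.51 (SE, adjusted p = 2.6e-05). Chrna4, a nicotinic receptor subunit, was at 18.3 to 132 CPM on chow and at most 0.195 CPM on MCD (log2 fold change -9.57, adjusted p = 2.2e-08). Slco1a1, an organic anion uptake carrier, Selenbp2, a selenium-binding protein, and the major urinary protein genes Mup11, Mup17, Mup16 and Mup1 had log2 fold changes from -8.28 to -7.29. With limma-voom the calls for Mup11, Mup16 and Mup1 were lost (adjusted p = 0.091, 0.06 and 0.26), and over the other alternatives their values came as near 0 as -4.63, -4.75 and -4.38. Those of Mup17 and Selenbp2 came as near as -4.49 and -5.27, and both calls held. Reads of Mup, Serpina1 and Serpina3 genes can be split among near-identical copies, so single members of these families are uncertain. Lrit2 fell from 403 counts over the chow livers to 5, and Dct, the dopachrome tautomerase of melanin synthesis, from 203 to 2. Pnpla5 and Pnpla3, lipases of the patatin family, had 318 and 1008 counts over the chow livers and 2 and 11 over the MCD livers. In level the largest falls were those of Alb, Scd1, Serpina3k, Mup3 and Serpina1e. The Alb call (log2 fold change -0.59, adjusted p = 0.0082) was lost with library totals alone and in males alone.

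**Figure D2:**
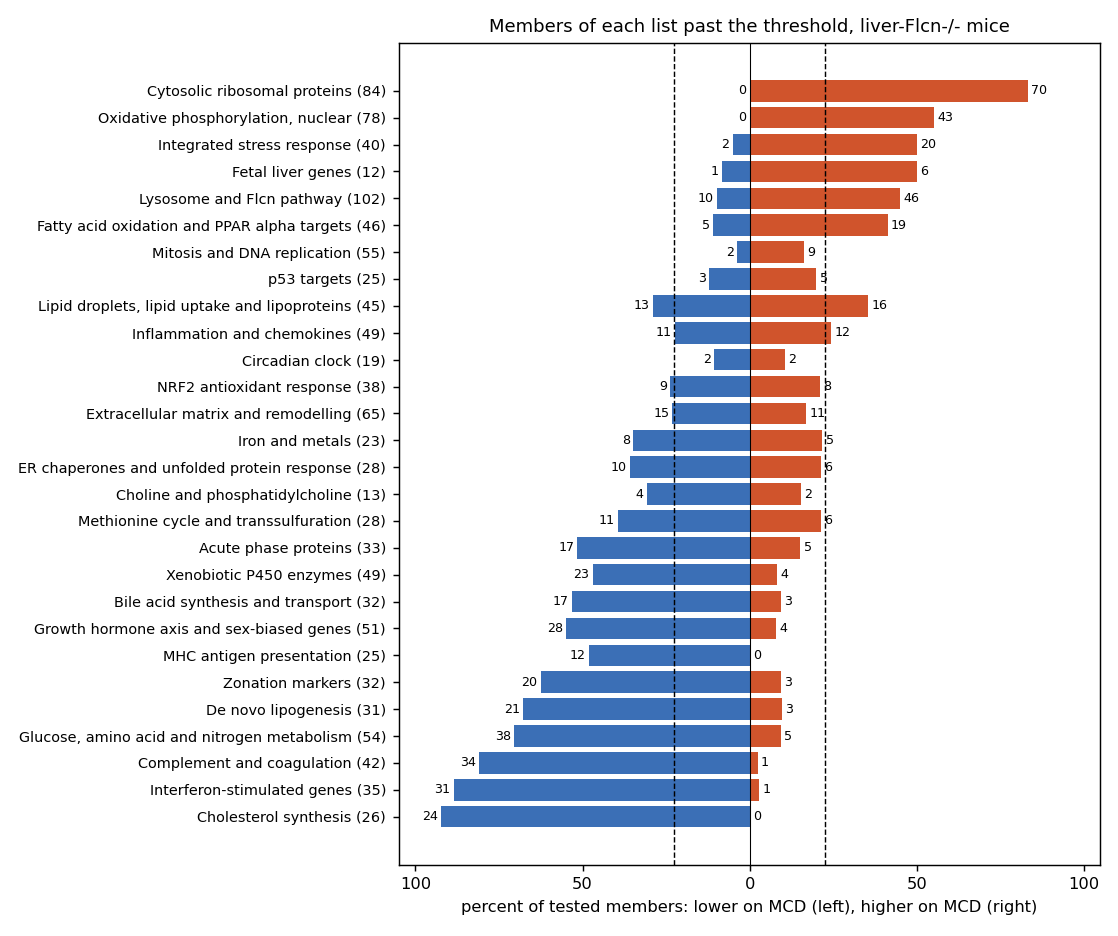
Bars give the percent of tested members of each list that were higher (right, orange) or lower (left, blue) on MCD in liver-Flcn-/- mice, with the counts at the bar ends and the number tested in parentheses. Dashed lines mark 22.5%, the share of all tested genes in each direction, and cholesterol synthesis (24 of 26 lower) and ribosomal proteins (70 of 84 higher) have the largest share in their direction.

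The integrated stress response, through which ATF4 raises genes of amino acid synthesis and transport when amino acids are short, was on balance higher on MCD. Of 40 tested members 20 rose and 2 fell, with a median log2 fold change of 0.86 against 0.00 for all genes, which was 0.52 in females alone. Asns, asparagine synthetase, was at 1.09, 0.297, 4.84, 3.97 and 1.24 CPM on chow and at 22.4 to 45.7 CPM (median 29.1) on MCD. Every MCD liver was above every chow liver, and the log2 change came to 3.76 ± 0.69 (SE, adjusted p = 0.00016). Psat1, of serine synthesis, was at 1.25, 0.772, 1.68, 3.09 and 1.89 CPM on chow and at 29.0 to 62.6 CPM (median 38.3) on MCD. It rose on the log2 scale by 4.52 ± 0.42 (SE, adjusted p = 2.9e-08). Trib3, a pseudokinase induced by ATF4 and CHOP, rose by 3.66 (adjusted p = 2.1e-07), Fgf21, the hormone of nutrient stress, by 3.50 (adjusted p = 2.0e-05) and the factors Atf3 and Ddit3 by 2.18 and 1.61. Slc7a11, the cystine carrier, had 2 counts over the chow livers and 167 over the MCD livers (adjusted p = 6.8e-05). Slc1a4, a carrier of small neutral amino acids, fell by 2.39 on the log2 scale (adjusted p = 1.3e-05), and Gdf15, a stress hormone, did not pass (-0.20, adjusted p = 0.67).

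Promoters are shown for 4 genes whose lists moved mostly in 1 direction, since each holds the element that its pathway's factor is known to bind. The sequences are the 250 bases before the gene start in RefSeq on GRCm38.p6, written 5′ to 3′ on the gene's strand, with each match on either strand in capitals. The letters searched were TGATGNAA for Slc7a11 and Asns (the C/EBP-ATF response element), TCACNCCAC for Hmgcs1 (the sterol regulatory element bound by SREBP factors) and TCACGTGA for Ctsd (the palindromic E-box bound by TFEB and TFE3).
Slc7a11 (chr3:50443614-50443863, minus strand): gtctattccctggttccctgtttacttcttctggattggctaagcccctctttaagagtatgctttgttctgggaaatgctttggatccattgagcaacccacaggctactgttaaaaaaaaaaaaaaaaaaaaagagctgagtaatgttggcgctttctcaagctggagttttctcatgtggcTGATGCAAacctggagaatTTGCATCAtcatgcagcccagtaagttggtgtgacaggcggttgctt
Asns (chr6:7693210-7693459, minus strand): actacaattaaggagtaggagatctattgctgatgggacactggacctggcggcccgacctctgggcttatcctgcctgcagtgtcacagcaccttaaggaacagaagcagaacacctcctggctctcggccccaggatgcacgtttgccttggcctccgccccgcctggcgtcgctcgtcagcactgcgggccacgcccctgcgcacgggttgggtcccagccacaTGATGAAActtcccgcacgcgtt
Hmgcs1 (chr13:119690101-119690350, plus strand): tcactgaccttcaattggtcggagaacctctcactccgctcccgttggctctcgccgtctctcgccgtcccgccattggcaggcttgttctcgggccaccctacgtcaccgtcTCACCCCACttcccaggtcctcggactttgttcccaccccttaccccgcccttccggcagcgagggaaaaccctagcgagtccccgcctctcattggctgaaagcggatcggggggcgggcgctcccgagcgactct
Ctsd (chr7:142387828-142388077, minus strand): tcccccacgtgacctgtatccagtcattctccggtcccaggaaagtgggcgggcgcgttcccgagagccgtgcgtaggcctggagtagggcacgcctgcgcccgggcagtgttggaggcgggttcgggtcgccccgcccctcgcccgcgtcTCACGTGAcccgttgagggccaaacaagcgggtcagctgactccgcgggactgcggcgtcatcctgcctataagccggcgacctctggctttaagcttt
TGATGNAA stood in 9 of the 33 stress response members with a promoter entry (27.3%) and in 3.53% of 27025 promoters of all genes. It stood in 7 of the 16 with an entry that rose and in neither of the 2 that fell. TCACGTGA stood in 5 of 83 lysosome and Flcn pathway members (6.02%) against 0.803% of all promoters, among them 2 of 33 that rose and 1 of 10 that fell. TCACNCCAC stood in 1 of 18 cholesterol synthesis members (5.56%) against 1.04%. The antioxidant response element TGACNNNGC stood in 6 of 33 NRF2 list members (18.2%) against 10.1%, and the metal response element TGCNCNC in 8 of 17 (47.1%) against 43.8%. In the mitosis and DNA replication list 33 of 44 promoters held CCAAT (75%) against 34.5%, and 2 held TTTCCCGC (4.55%) against 0.929%. The D-box TTATGTAA stood in 1 of 16 clock gene promoters (6.25%) against 0.862%. These matches describe the letters and were not tested as binding sites.

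**Figure D3:**
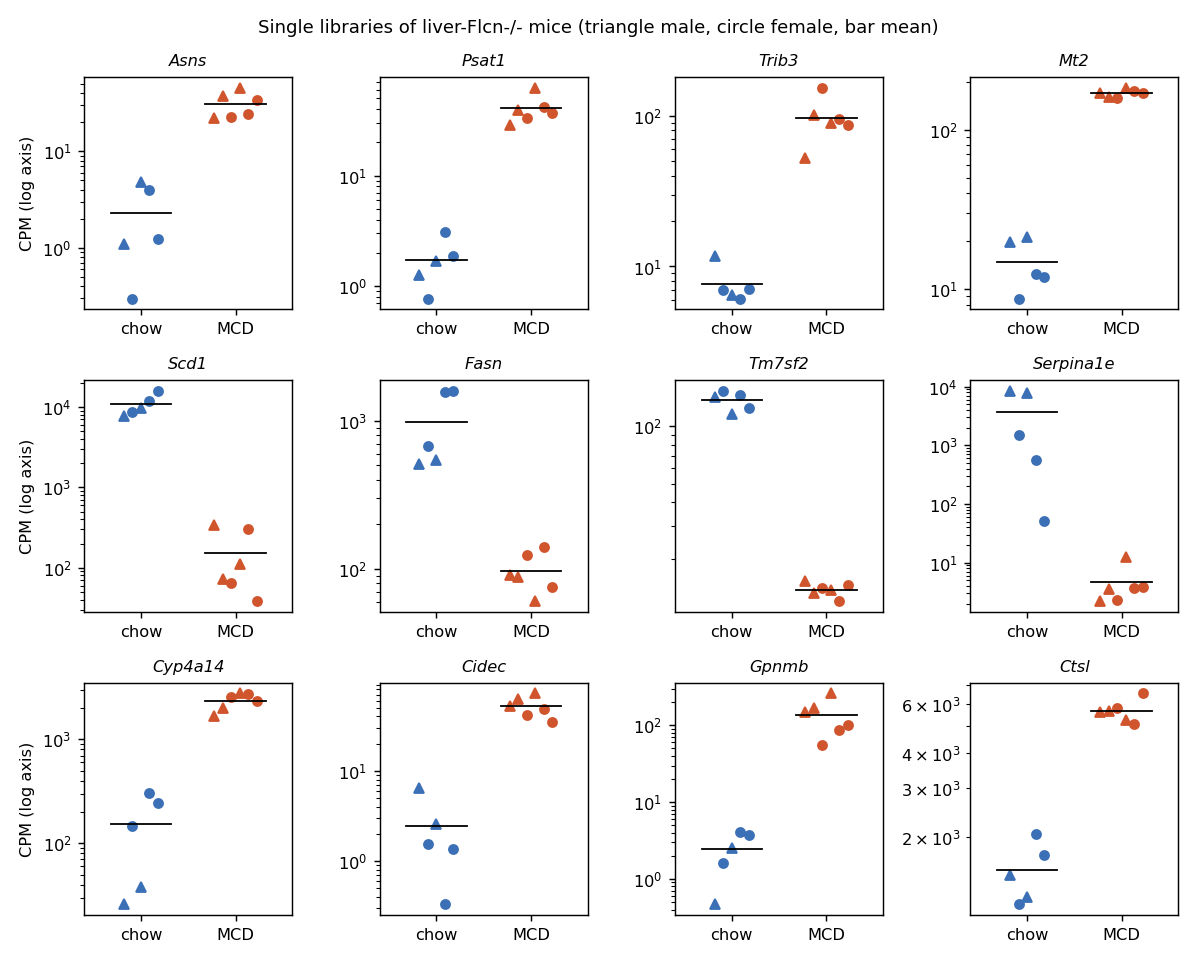
Points are single liver-Flcn-/- livers on chow (blue) and MCD (orange), in CPM on log axes, for 12 genes, with triangles for males, circles for females and bars for means. The 2 diets are apart for all 12 genes, and on chow Serpina1e spans 50.5 to 8600 CPM with both males highest.

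Methionine metabolism changed at particular steps. Mat2a, the form of methionine adenosyltransferase outside the adult hepatocyte, was at 49.7 to 77.4 CPM on chow and 368 to 470 CPM on MCD (log2 fold change 2.79 ± 0.18, SE, adjusted p = 1.9e-10), and the hepatocyte form Mat1a rose by 0.57 (adjusted p = 0.016) with overlapping groups. The Mat1a call was lost in 5 of 25 alternatives, with values down to 0.31 without the chow libraries of low uniquely mapped share, and among them the fits without chow replicate 1 (0.47) and without chow replicate 3 (0.46). Gnmt, which uses up excess S-adenosylmethionine, fell from 1220 to 1610 CPM on chow to 316 to 513 CPM on MCD (log2 fold change -1.79, adjusted p = 9.0e-09). Cbs, which commits homocysteine to cysteine, fell by 1.18 (adjusted p = 2.0e-06), and Bhmt, which remethylates homocysteine with betaine, did not pass (-0.45, adjusted p = 0.20). The largest fall on this list was that of Aldh7a1, at 533 to 618 CPM on chow and 138 to 155 CPM on MCD, which oxidises betaine aldehyde (log2 fold change -1.96, adjusted p = 1.6e-11). Over all 28 members 6 rose and 11 fell, with a median of -0.24, which was 0.02 with library totals alone. Of 13 choline genes 2 rose and 4 fell (46.2% called against 45% of all genes, median -0.14, or 0.12 with library totals alone). Pemt, which methylates phosphatidylethanolamine to phosphatidylcholine, rose by 0.59 (adjusted p = 0.00083) and Pisd, which makes its substrate, by 0.69 (adjusted p = 4.1e-05). The choline carrier Slc44a1 fell by 1.30 (adjusted p = 1.3e-06).

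Most genes of fat synthesis were lower. Of 31 de novo lipogenesis genes 21 were lower and 3 higher (median log2 fold change -0.87). Scd1, the main stearoyl-CoA desaturase of the liver, was at 7740, 8770, 9690, 11900 and 16000 CPM on chow and at 38.0 to 337 CPM (median 91.0) on MCD. Its log2 difference came to -6.13 ± 0.74 (SE, adjusted p = 9.7e-07). Fasn, fatty acid synthase, was at 514, 677, 547, 1570 and 1600 CPM on chow and at 60.4 to 141 CPM (median 89.5) on MCD (-3.34 ± 0.43, SE, adjusted p = 2.7e-06). Thrsp, a regulator of lipogenesis, fell by 3.23 (adjusted p = 0.00018). Acaca, which makes malonyl-CoA, did not pass (-0.19, adjusted p = 0.46), and Pparg, a driver of fat storage, rose by 1.00 (adjusted p = 0.0020).

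Of 26 genes of cholesterol synthesis 24 were lower and 0 higher in edgeR, with a median of -1.39, and 0 were higher at an unadjusted p under 0.05 or in DESeq2 or limma-voom. Tm7sf2, a sterol reductase, was at 143, 154, 116, 146 and 125 CPM on chow and at 12.0 to 15.4 CPM (median 14.0) on MCD (-3.30 ± 0.15, SE, adjusted p = 3.0e-12). Sqle, squalene epoxidase, fell by 0.89 (adjusted p = 0.00093), a call lost in males alone. Hmgcs1, which opens the mevalonate pathway, fell by 1.50 (adjusted p = 0.00013).

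Fatty acid oxidation and PPAR alpha targets were more often higher than lower (19 and 5 of 46, median 0.28). Cyp4a14, an omega-hydroxylase and PPAR alpha target, was at 25.8, 148, 37.7, 306 and 243 CPM on chow, with both males lowest, and at 1690 to 2770 CPM (median 2470) on MCD (log2 fold change 3.95, adjusted p = 0.00053). Pdk4, which restrains pyruvate use, rose by 1.74 (adjusted p = 0.0041), a call lost in males alone. Cpt1a, Cyp4a10 and Ehhadh, also PPAR alpha targets, had log2 fold changes of 0.46, 0.33 and 0.01 and did not pass. Cyp4a12a, a male-biased member of the family, fell by 2.76 (adjusted p = 0.021), a call lost in 7 of 25 alternatives (range -3.59 to -0.78), among them limma-voom, females alone and the fits without chow replicate 1 or 3.

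Among genes of lipid droplets and lipases 9 of 16 rose and 1 fell. Cidec, which enlarges droplets, was at 6.38, 1.54, 2.55, 0.331 and 1.35 CPM on chow and at 34.4 to 71.9 CPM (median 50.3) on MCD (4.47 ± 0.51, SE, adjusted p = 5.0e-07). The droplet coat gene Plin2 rose by 0.66 (adjusted p = 0.0099) with overlapping groups, a call lost in males alone. Cd36, a fatty acid uptake protein, rose by 2.40 (adjusted p = 2.1e-06), with chow livers at 55.3 to 126 CPM and MCD livers at 417 to 634 CPM. Fabp5, a fatty acid binding protein, fell by 2.43 (adjusted p = 3.2e-05). Of 19 apolipoprotein and assembly genes 9 fell and 2 rose, and Apoa4 rose by 2.69 ± 0.40 (SE, adjusted p = 1.5e-05), from 899 to 2650 CPM on chow to 5810 to 17300 CPM on MCD.

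Many functions of the mature hepatocyte were lower. Of 54 genes of glucose, amino acid and nitrogen metabolism 38 fell and 5 rose (median -0.77), and 25 of the 31 genes of amino acid breakdown fell. Afmid, of tryptophan breakdown, fell by 2.64 (adjusted p = 1.1e-08), Hal, of histidine breakdown, by 0.95 (adjusted p = 0.0021) and Cps1, which opens the urea cycle, by 0.61 (adjusted p = 0.0056). The calls for Hal and Cps1 were lost in males alone, and that for Cps1 also with library totals alone. Pck1, of gluconeogenesis, did not pass (-0.48, adjusted p = 0.15). Pericentral genes fell in 12 of 18 cases and periportal genes in 8 of 14. Glul, glutamine synthetase of the cells around the central vein, fell by 1.07 (adjusted p = 4.2e-05) and the periportal marker Cyp2f2 by 1.16 (adjusted p = 0.0063, a call lost with -0.71 and adjusted p = 0.061 without the chow libraries of low uniquely mapped share), while the Wnt target Axin2 stood at 0.00 (adjusted p = 0.99).

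Of 12 genes of bile acid synthesis 10 fell and 0 rose in edgeR, at an unadjusted p under 0.05, in DESeq2 or in limma-voom. Cyp8b1, which makes the cholic acid branch, fell by 1.26 (adjusted p = 0.0045) and Cyp7b1, of the alternative pathway, fell with a log2 fold change of -4.22 (adjusted p = 0.00060). Without the chow libraries of low uniquely mapped share Cyp7b1 came to -2.19 and in females alone to -2.67, and the Cyp8b1 call was lost in both (-0.76 and -0.69). Cyp7a1, the rate-limiting enzyme, did not pass (-0.70, adjusted p = 0.076). Slc10a1, the main bile acid uptake carrier, was at 593 to 706 CPM on chow and 104 to 235 CPM on MCD (-2.05, adjusted p = 1.0e-07), and Abcb11, the export pump into bile, fell by 1.08 (adjusted p = 4.3e-06). Slc51b, a subunit of the exporter into blood, rose by 2.53 (adjusted p = 1.1e-05). Of 49 xenobiotic P450 genes 23 fell and 4 rose (median -0.96). In males alone 19 fell and 13 rose (median -0.24), and in females alone 28 fell and 4 rose (median -0.92), a difference that was not tested over the list. Cyp2c54 was at 137 to 423 CPM on chow and at most 3.68 CPM on MCD (-6.66, adjusted p = 3.2e-10). Cyp2b10, a target of the receptor CAR, fell by 3.51 (adjusted p = 0.0017) and Cyp1a2, of caffeine metabolism, by 2.03 (adjusted p = 2.0e-07). Cyp2e1, the ethanol-oxidising P450, was at 3490 to 6720 CPM on chow and 3980 to 6240 CPM on MCD and did not pass (0.09, adjusted p = 0.69), and Cyp3a59 rose by 2.10 (adjusted p = 3.3e-06).

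Complement and coagulation genes fell in 34 of 42 cases and rose in 1 (median -0.79). Mbl2, a mannose-binding lectin that starts complement, was at 416, 832, 453, 783 and 855 CPM on chow and at 3.44 to 14.9 CPM (median 13.3) on MCD (-5.96 ± 0.41, SE, adjusted p = 3.9e-10). Acute phase genes moved apart. Apcs, serum amyloid P, rose from 131 to 239 CPM on chow to 1600 to 2400 CPM on MCD (3.56 ± 0.24, SE, adjusted p = 2.8e-10), whereas Saa1, serum amyloid A, was at 176, 46.8, 801, 44.0 and 55.2 CPM on chow and 6.49 to 19.7 CPM on MCD (-4.12, adjusted p = 0.0019). Without chow replicate 3, the liver at 801 CPM, the Saa1 value was -2.64 (adjusted p = 0.019), and without the chow libraries of low uniquely mapped share it was -1.91. Of the 27 positive acute phase genes 4 rose and 13 fell. Igf1, the growth factor that growth hormone induces in liver, fell by 1.38 (adjusted p = 1.2e-05), and its binding protein Igfbp1 rose by 1.75 (adjusted p = 0.012), a call lost without the chow libraries of low uniquely mapped share and in either sex alone.

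Male-biased liver genes were lower on MCD: 18 of 19 were lower in edgeR, with a median of -5.76, and 0 were higher in edgeR, at an unadjusted p under 0.05, in DESeq2 or in limma-voom. With limma-voom the calls as lower were lost for the male-biased genes Hsd3b5, Mup20 and Cyp4a12a. Of 18 female-biased genes 2 rose and 3 fell in the fit of all mice. The diets were also compared within each sex, in 1 fit of 8 groups of genotype, diet and sex that was added after the data were seen. Males alone gave 1957 higher and 2085 lower genes and females alone 2643 and 2718, and 2952 genes were called in both in the same direction. The response itself differed between the sexes for 95 genes (0.676% of those tested).

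On chow 369 genes differed between male and female liver-Flcn-/- mice (2.62%), of which 365 were not Xist or Y-linked. Both males on chow also had a low share of uniquely mapped reads, which cannot be told apart from sex there. On the MCD diet 8 genes differed (0.0569%), and 5 of those were not Xist or Y-linked. Leaving out single mice moved the number on chow from 143 (without chow replicate 1) to 405 (without chow replicate 2) and the number on MCD from 5 to 15. Without chow replicate 3 it was 186 and without chow replicate 5 it was 232. The 181 genes higher in males on chow had a median male minus female difference of 1.58 on chow and 0.13 on MCD, and the 184 higher in females one of -1.45 and -0.12. They were chosen on the chow libraries, which by itself enlarges their chow medians, and the MCD values come from other mice. On MCD 1 of the 181 and 3 of the 184 still differed in the same direction. The edgeR test of the response between the sexes passed for 28 of the 181 and 54 of the 184. For the rest a change of the difference was not shown.

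Both directions took part. Hsd3b5, a male-specific steroid enzyme, was at 207 and 217 CPM in the males on chow and at 31.4, 13.4 and 0.216 CPM in the females. All 6 MCD livers were at 0.191 to 0.803 CPM, and its call for the diet over all mice was lost with limma-voom (adjusted p = 0.22). Mup20, darcin, a pheromone protein of males, was at 5450 and 5740 CPM in males and 31.4 to 623 CPM in females on chow, and at 185 to 292 CPM in all MCD livers. Mup20 fell by 4.59 in males (adjusted p = 0.00021) and did not pass in females (-0.61, adjusted p = 0.49), and the difference between these responses did not pass (adjusted p = 0.077). Chosen after its values were seen, Cyp2b9, a female-biased P450, was at 0.311 and 2.22 CPM in males and 399 to 416 CPM in females on chow. On MCD it was at 142 to 228 CPM in all 6 livers, so that it rose by 6.87 in males (adjusted p = 8.9e-09) and fell by 0.97 in females (adjusted p = 0.0085). In all, 22 genes were called in opposite directions in the sexes, among them A1bg, Cyp3a16, Slc22a26, Cyp2c40 and Cyp2b13, also chosen after their values were seen and all higher in females on chow. Nqo1, the quinone reductase that NRF2 induces, rose by 1.46 in males (adjusted p = 7.5e-05) and fell by 0.61 in females (adjusted p = 0.012), with MCD livers at 14.3 to 21.5 CPM.

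**Figure D4:**
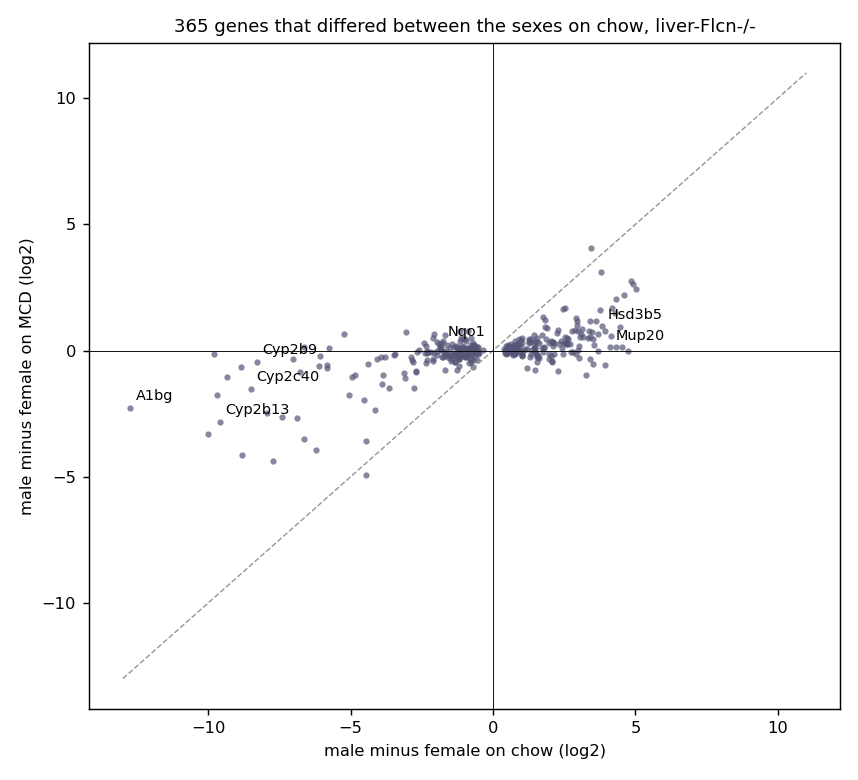
Each point is 1 of the 365 genes that differed between male and female liver-Flcn-/- mice on chow, with the log2 difference on chow (x) and on MCD (y), and the dashed line marks equal differences. Most points lie near 0 on the y axis, with medians of 0.13 for genes higher in males on chow and -0.12 for genes higher in females. On chow sex and a low share of uniquely mapped reads cannot be told apart.

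Lysosomal genes were more often higher than lower. Of 102 tested members of the lysosome and Flcn pathway list 46 rose and 10 fell (median 0.25), led by membrane proteins and V-ATPase subunits with 16 of 24 higher and 1 lower. Ctsl was at 1460, 1150, 1220, 2050 and 1720 CPM on chow and at 5080 to 6530 CPM (median 5640) on MCD (1.90 ± 0.18, SE, adjusted p = 4.8e-08). Ctsd, the aspartic protease cathepsin D, rose by 0.72 (adjusted p = 1.9e-05). Gpnmb, a glycoprotein of lysosomes and lipid-laden macrophages and a TFE3 target, was at 0.467, 1.60, 2.55, 4.08 and 3.72 CPM on chow and at 55.2 to 260 CPM (median 126) on MCD (5.75 ± 0.53, SE, adjusted p = 3.2e-08). Rragd, which encodes RagD, rose by 0.89 (adjusted p = 0.0021, lost in males alone) and the autophagy receptor Sqstm1 by 0.87 (adjusted p = 3.2e-05), whereas Glb1, lysosomal beta-galactosidase, fell by 1.34 (adjusted p = 4.8e-08). Of 26 autophagy genes 7 rose and 4 fell, or 42.3% called against 45% of all genes.

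Nuclear genes of oxidative phosphorylation rose in 43 of 78 cases (median 0.27), each by less than 1 on the log2 scale. In edgeR 0 fell, 2 were lower at an unadjusted p under 0.05, and 0 were lower in DESeq2 or limma-voom. Uqcr10, a subunit of complex III, was at 115 to 185 CPM on chow and 228 to 320 CPM on MCD (0.94, adjusted p = 5.6e-05). Without chow replicate 2 and MCD replicate 3 the counts were 27 and 3, and in males alone 11 and 1. Cytosolic ribosomal protein genes rose in 70 of 84 cases and fell in 0 by edgeR, at an unadjusted p under 0.05, by DESeq2 or by limma-voom (median 0.54), led by Rpl22l1 (1.51, adjusted p = 1.1e-06), and in males alone 27 rose. Reads of ribosomal protein genes can be shared with processed pseudogenes.

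Of 8 genes of metallothioneins and zinc 3 rose and 3 fell. The metallothioneins Mt1 and Mt2, which bind zinc and copper, were among those that rose. Mt2 was at 19.8, 8.73, 21.2, 12.5 and 11.9 CPM on chow and at 158 to 183 CPM (median 169) on MCD (3.51 ± 0.49, SE, adjusted p = 5.9e-06), and Mt1 rose by 3.10 (adjusted p = 2.1e-05). Slc30a10, a manganese exporter, fell by 1.32 (adjusted p = 0.00012), and hepcidin, Hamp, fell by 0.67 (adjusted p = 0.048), a call lost with 15 of 25 alternatives. In the NRF2 list 8 of 38 were higher and 9 lower (44.7% called against 45% of all genes, median -0.13, or 0.13 with library totals alone). In it Gsta1 rose by 2.40 (adjusted p = 0.00034) and Hmox1, haem oxygenase, by 0.52 (adjusted p = 0.0017), Gstm6 and Gstm1, glutathione transferases, fell by 1.89 and 0.95 (the Gstm1 call was lost in males alone), and Gclm, of glutathione synthesis, did not pass (-0.18, adjusted p = 0.16). Of 28 genes of the endoplasmic reticulum 6 rose and 10 fell. Sdf2l1, a chaperone partner, fell by 2.31 (adjusted p = 1.2e-07), the sensor Atf6 rose by 0.83 (adjusted p = 1.7e-05), and the chaperone Hspa5 stayed within 776 to 1190 CPM (0.07, adjusted p = 0.80). Of 19 clock genes 2 were higher and 2 lower (21.1% called against 45% of all genes, median -0.06, or 0.19 with library totals alone). Nfil3, a clock output repressor, fell by 1.59 (adjusted p = 0.00071) and Ciart rose by 2.93 (adjusted p = 0.010, lost in 2 of 25 alternatives), while Arntl, Dbp and Nr1d1 had log2 fold changes of -0.75, 1.41 and 0.11 and did not pass (adjusted p = 0.24, 0.21 and 0.84).

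Interferon-stimulated genes fell in 31 of 35 cases and rose in 1 (median -1.33). Ifit1, an antiviral RNA sensor, was at 19.1, 26.1, 25.8, 49.8 and 22.5 CPM on chow and at 5.44 to 13.5 CPM (median 10.9) on MCD (-1.45 ± 0.25, SE, adjusted p = 9.1e-05), and Gbp3, an interferon-induced GTPase, fell by 2.26 (adjusted p = 5.6e-06). The exception was Usp18, an inhibitor of interferon signalling (0.40, adjusted p = 0.040), which no longer passed in 12 of 25 alternatives. In the antigen presentation list 12 of 17 class I genes fell, with Psmb8, a subunit of the immunoproteasome, the largest (-1.59, adjusted p = 2.0e-08). Of 8 class II genes 0 passed in edgeR, at an unadjusted p under 0.05, in DESeq2 or in limma-voom, and Cd74 and H2-Aa had log2 fold changes of -0.37 and -0.13. Markers of B and plasma cells summed to 50.8 to 70.2 CPM on chow and 6.87 to 12.7 CPM on MCD with 3 of 6 lower, and Ighm was the most abundant. Markers of T and NK cells summed to 5.91 to 9.43 CPM on chow and 3.74 to 6.80 CPM on MCD with 3 of 5 tested lower. Kupffer cell markers summed to 410 to 656 and 275 to 592 CPM, and of 8 the markers Clec4f, Timd4, Folr2 and Adgre1 were lower, while Cd5l, with Clec4f among the most abundant, did not pass (-0.32, adjusted p = 0.27). Markers of liver endothelial cells, of which Stab2 was the most abundant, summed to 247 to 340 and 208 to 246 CPM, and 5 of 8 (Clec4g, Kdr, Pecam1, Fcgr2b and Oit3) were lower. No marker of these classes was at 0 in all livers. Their part in the fall of interferon and class I genes, and in the values of matrix genes, was not tested.

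Other immune and matrix genes were divided. Neutrophil markers, of which S100a9 was the most abundant, summed to 5.28 to 10.9 CPM on chow and 11.2 to 29.8 CPM on MCD, with 4 of 5 tested higher. Markers of monocyte-derived and lipid-associated macrophages summed to 121 to 147 and 148 to 428 CPM, with 4 of 8 higher. Most of the rise in the sum was that of Gpnmb, with means of 2.48 and 137 CPM, and Trem2, Itgax and Cd9 rose by 1.88, 1.54 and 0.41 (adjusted p = 0.00012, 0.0028 and 0.042). Lyz2, the most abundant of them on chow, had means of 88.8 and 98.4 CPM and did not pass (adjusted p = 0.63), nor did Ccr2, Ly6c2 or Cx3cr1. Mmp12, an elastase of macrophages, was at 1.87, 1.60, 1.61, 0.772 and 2.43 CPM on chow and at 9.19 to 56.2 CPM (median 28.2) on MCD (4.26 ± 0.43, SE, adjusted p = 1.1e-07), and lowest on MCD in replicate 3. Of 49 inflammation genes 12 rose and 11 fell, near the share over all genes (46.9% called against 45%). Their median was -0.04, or 0.22 with library totals alone. The receptor C5ar1 and the chemokine Ccl2 rose by 1.24 and 1.19 (adjusted p = 0.0036 and 0.0099), calls lost in females alone (0.66 and 0.54) and for Ccl2 also with limma-voom, and the chemokine Ccl9 fell by 1.99 (adjusted p = 6.9e-07). Of 65 matrix genes 11 rose and 15 fell (40% called against 45% of all genes, median -0.10, or 0.16 with library totals alone). In males alone 18 were higher and 8 lower and in females alone 2 were higher and 25 lower, a difference that was not tested over the list. Col15a1 fell by 2.26 (adjusted p = 6.4e-05) and Timp1, an inhibitor of matrix proteases, rose by 1.89 (adjusted p = 0.0028, lost in females alone with 0.085), from 0.0594 to 0.336 CPM on chow to 0.334 to 1.38 CPM on MCD. Col1a1 and Spp1 did not pass (-0.32 and -0.16, adjusted p = 0.52 and 0.57), and Col3a1 was just past the threshold (-0.89, adjusted p = 0.049), a call lost in 13 of 25 alternatives, with a value of 0.10 in males alone. Stellate cell markers, of which Dcn was the most abundant, summed to 347 to 508 CPM on chow and 410 to 532 CPM on MCD, with 1 of 10 higher and 1 lower.

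Of 30 mitosis genes 0 passed in edgeR, at an unadjusted p under 0.05, in DESeq2 or in limma-voom, and 3 were lower in females alone. Of 25 replication genes 9 rose and 2 fell. Mki67 and Top2a, markers of dividing cells, were at 4.03 to 9.74 and 3.43 to 6.38 CPM on chow. On MCD replicate 4 stood at 17.7 and 16.7 CPM and the other 5 livers at 1.77 to 7.29 and 1.53 to 5.25 CPM. Ccne1, cyclin E1, rose by 2.34 (adjusted p = 0.0035), Ccnd1, cyclin D1, did not pass (0.30, adjusted p = 0.50), and Tk1, thymidine kinase, fell by 1.78 (adjusted p = 2.9e-06). Of 25 p53 targets 5 rose and 3 fell, or 32% called against 45% of all genes. Tnfrsf10b, a death receptor (1.44, adjusted p = 0.0015), Mdm2 (0.40, adjusted p = 0.0019) and Plk2 (-1.34, adjusted p = 5.0e-05) were among those called. Cdkn1a did not pass (0.65, adjusted p = 0.32). Fetal liver genes rose in 6 of 12 cases. Afp, alpha-fetoprotein, was at 4.12, 2.14, 1.95, 2.48 and 4.58 CPM on chow and at 63.6 to 354 CPM (median 127) on MCD (5.91 ± 0.60, SE, adjusted p = 1.0e-07), and the imprinted gene Mest fell by 1.46 (adjusted p = 0.00021).

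Compared with Cre mice, in which 57.5% of genes were called, most of this response was shared. Of the 6328 genes called in liver-Flcn-/- mice 4874 (77% of them, and 60.3% of those called in Cre mice) were called in the same direction in Cre mice and 82 in the opposite. The response itself differed between the genotypes for 1242 genes (8.83%), of which 595 were among the 6328. By size and whatever its direction, the response in liver-Flcn-/- mice was the smaller for 995 of the 1242 genes and the larger for 247. Among the 595, which were chosen by their call in these mice, it was the smaller for 350 and the larger for 245, numbers that were 190 and 101 with the replicate block and 486 and 338 with DESeq2, and the 245 became 159 without chow replicate 4. Retained responses were close in size for Tm7sf2 (-3.30 in both), Mat2a (2.79 in both), Cyp4a14 (3.95 and 3.94 in Cre mice), Trib3 (3.66 and 3.88) and Scd1 (-6.13 and -6.42).

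The lists with the most members that differed were oxidative phosphorylation (47 of 78), extracellular matrix (30 of 65) and interferon-stimulated genes (21 of 35). Of the oxidative phosphorylation genes 43 rose and 0 fell in liver-Flcn-/- mice (median 0.27) while 2 rose and 37 fell in Cre mice (median -0.16). The fall of interferon-stimulated genes had a median of -1.33 in liver-Flcn-/- mice and -0.37 in Cre mice, and for Ifit1 the difference was -1.41 (adjusted p = 0.018, lost in 2 of 22 alternatives). Of 19 genes of mitochondrial fatty acid oxidation and ketogenesis 9 differed, with a median of 0.43 in liver-Flcn-/- mice and 0.04 in Cre mice. Matrix and mitosis genes had medians of -0.10 and 0.06 in liver-Flcn-/- mice and 1.22 and 2.33 in Cre mice, and 9 of the 30 mitosis genes differed. Among the stress genes Atf3 responded less in liver-Flcn-/- mice (2.18 and 4.16, adjusted p = 0.0031 for the difference), as did Gpnmb (5.75 and 8.70, adjusted p = 0.029), Mmp12 (4.26 and 7.97, adjusted p = 0.0021) and Cidec (4.47 and 6.81, adjusted p = 0.042). The differences for Cidec and Gpnmb were lost in 11 and 5 of 22 alternatives and that for Mmp12 with limma-voom. Mean Gpnmb was 2.48 CPM on chow and 137 CPM on MCD in liver-Flcn-/- mice. In Cre mice it was 0.302 and 129 CPM, so that the genotypes were closer on MCD than on chow.

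Among the genes whose response was larger in size in liver-Flcn-/- mice, the 6 with the largest difference fell in these mice, and for 5 of them the value in Cre mice was above 0. Meg3 and Rian, maternally expressed non-coding RNAs of 1 imprinted cluster, were at 7.05 to 23.8 and 2.62 to 9.98 CPM on chow and 1.38 to 5.95 and 0.334 to 0.919 CPM on MCD. Their log2 fold changes were -2.26 and -3.24, against 1.41 and 1.20 in Cre mice (adjusted p = 0.0051 and 0.0031 for the difference). Ighm, the heavy chain of IgM, was at 30.2 to 54.9 CPM on chow and 2.91 to 6.03 CPM on MCD, with a log2 fold change of -3.42 against 0.75 in Cre mice (adjusted p = 0.0079). Prkg2, a cGMP-dependent kinase, and Fxyd6, a regulator of the sodium pump, had log2 fold changes of -2.89 and -3.15, against 2.09 (adjusted p = 0.18, not passing) and 2.70 (adjusted p = 0.0066) in Cre mice. They were at 10.1 and 8.13 and at 12.8 and 6.38 CPM in the 2 males on chow. In the females on chow they were at 0.951 to 1.67 and 0.916 to 1.60 CPM, and both calls for the diet were lost without the chow libraries of low uniquely mapped share. Gm17746 fell by 4.58 against -0.78 in Cre mice (adjusted p = 0.010).

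**Figure D5:**
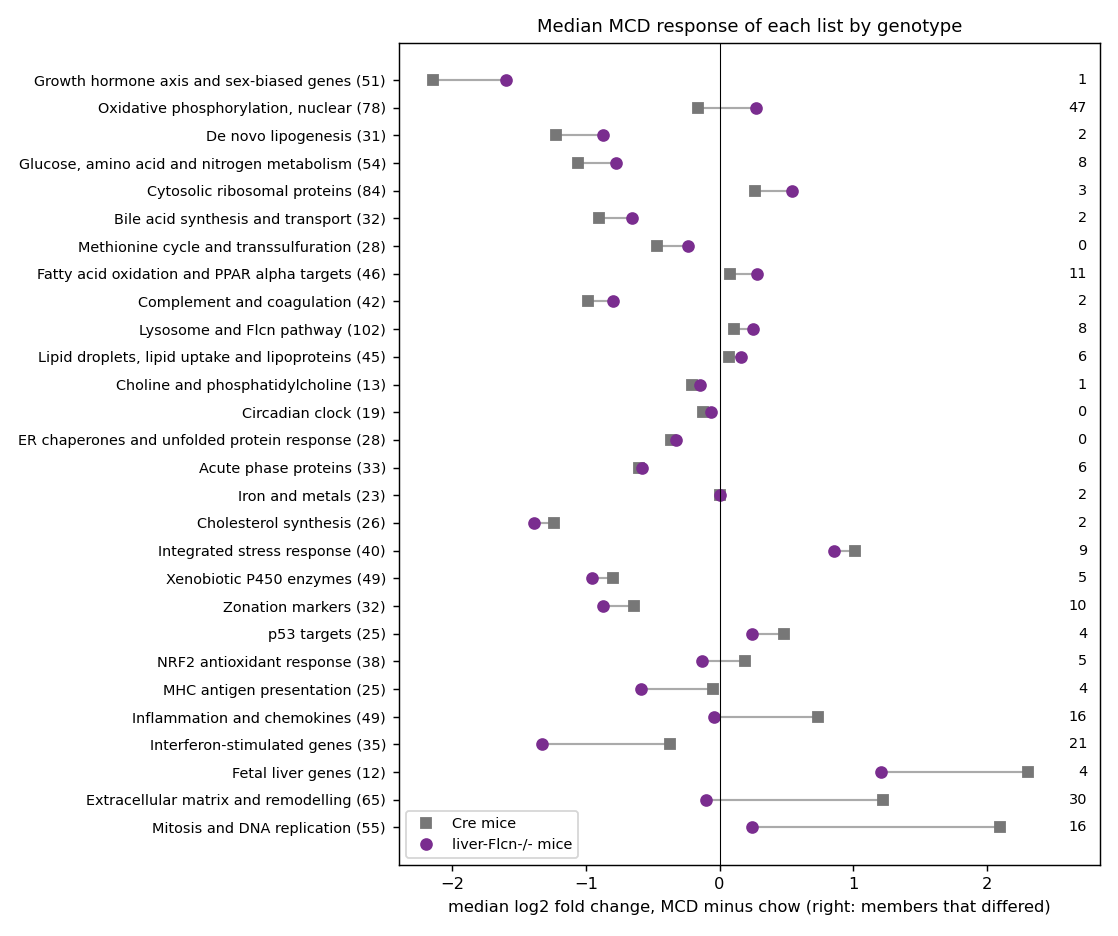
For each list the circle gives the median log2 fold change with MCD in liver-Flcn-/- mice and the square that in Cre mice, with the number of members whose response differed between genotypes at the right. The matrix list (-0.10 and 1.22), interferon-stimulated genes (-1.33 and -0.37) and oxidative phosphorylation (0.27 and -0.16) hold the most such members.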

How the data were processed

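Livers were sequenced as single-end reads of 75 bases. Per the study's methods and the submitters' processing notes, the authors trimmed reads with Trimmomatic, aligned them to GRCm38 with STAR and counted them per gene with HTSeq, with versions not given in the sources used here. The deposited values are raw read counts per gene, and whether molecular identifiers were collapsed is not given in the sources used here. Genes whose counts averaged 10 or more across 22 libraries were fitted in edgeR 4.0.16 (R 4.3.3) with TMM factors, in 1 quasi-likelihood model of 4 groups, and p-values were adjusted by Benjamini-Hochberg over 14062 genes. SEs were taken from the F statistic. limma 3.58.1 (voom) and DESeq2 1.42.0 were alternatives. Counting intervals and floors cover counting error only, and p-values measure the spread between these mice, whose litters the labels do not give.

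The genes, lists, marker sets and motifs were chosen with earlier results of these data known. Genes were named if they had the largest changes (12 in each direction, at a mean of at least 1 CPM and without overlap), were key list members, had the largest rise or fall of a list, the 5 largest rises or falls in level, or the 6 largest differences between genotypes; genes outside this rule are said to be chosen after their values were seen, or are those whose promoters are printed. Sex was read from Xist (above 10 CPM) and Y-linked genes. The edgeR procedure was tested on simulated data. Some genes that this rule selects are not reported here.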

Additional observations from a re-analysis of the deposited data

Results flagged for a closer look

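Single livers stood apart from the rest of their group in CPM, relative to its range, a pattern that chance gives in about 1 of 20 groups. The screen covered 160 genes on both diets, so some of the livers below would stand apart by chance. On chow, replicate 1 did so for Trib3 (11.7) and C5ar1 (0.156), and replicate 2 for Sqstm1 (403). Chow replicate 3 stood apart for Vmn2r3 (1.14), Orm2 (64.1), Saa1 (801) and Saa2 (416), and replicate 4 for Ifit1 (49.8) and Fabp5 (232). Chow replicate 5 stood apart for Zbed4-ps1 (0.162), Gm7575 (0.216) and Ciart (1.56). On MCD, replicate 4 stood apart for Top2a (16.7), Mki67 (17.7), Mup11 (1.44), Hsd3b5 (0.803), Slco1a1 (2.49) and Serpina1e (12.6). The other MCD livers were replicate 2 for Pparg (14.9) and Slc44a1 (19.6), replicate 5 for Pnpla5 (0.0977) and replicate 6 for Mup3 (69.7).

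The log2 response in liver-Flcn-/- mice minus that in Cre mice passed the edgeR test of the difference for the genes given next. It was below 0 for Gpnmb (-2.95), Cidec (-2.34), Mmp12 (-3.71), Gsta1 (-2.53), Atf3 (-1.98), Timp1 (-3.43), Ccl2 (-2.13), Hmox1 (-1.10), Usp18 (-1.08), Ccnd1 (-1.94), Spp1 (-1.56), Mki67 (-2.61), Col1a1 (-2.99) and Col3a1 (-2.25). It was also below 0 for Plk2 (-1.17), Ifit1 (-1.41), Psmb8 (-0.64), Meg3 (-3.67), Gbp3 (-1.37), Slc1a4 (-2.22), Prkg2 (-4.98), Fxyd6 (-5.85), Rian (-4.45), Ighm (-4.18), Gm17746 (-3.80) and Mbl2 (-1.58). It was above 0 for Sdsl (0.97), Sds (1.29) and Slc10a1 (1.06). Of 22 alternatives, 17 lost the call for Psmb8, 14 those for Gbp3 and for Mki67, 11 that for Cidec, 10 that for Mbl2, 8 that for Sdsl, 6 that for Gsta1, 5 that for Gpnmb and 4 those for Plk2, Prkg2, Sds and Slc10a1. Timp1, Ccl2 and Ifit1 lost it in 2 and Ccnd1, Mmp12, Fxyd6 and Ighm in 1.

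The response of males minus that of females passed the same test for Cyp4a14 (2.62), Cyp3a11 (1.40) and Nqo1 (2.08), which were all lower in males than in females on chow.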

How the results depend on the processing

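With library totals alone 5803 genes were higher, 1731 lower and 1323 higher by more than 1 on the log2 scale, and males alone gave 1957 higher and 2085 lower genes. Leaving out each liver-Flcn-/- mouse gave 2768 to 3077 higher and 2848 to 3137 lower genes. Chow replicates 1 and 2, chow replicates 3 and 4, and MCD replicates 4 and 5 shared the first number of their source names. What that number means is not given in the sources used here. With libraries of a shared first number summed, 2677 genes were higher and 2761 lower. The number with a smaller response than in Cre mice was 350 and fell to 209 with no filter on low counts, 227 without the chow libraries of low uniquely mapped share, 219 with libraries of a shared first number summed and 218 without chow replicate 2 and MCD replicate 3, and was 238 to 343 when each liver-Flcn-/- mouse was left out (no Cre mouse was). The number with a larger response was 245 and became 159 with no filter, 134 without that pair of libraries, and 159 (without chow replicate 4) to 281 when each liver-Flcn-/- mouse was left out. With DESeq2 the numbers with a smaller and a larger response rose to 486 and 338, and with library totals alone they were 487 and 206. With the replicate block these numbers were 190 and 101, and 5887 genes were called for the diet. Replicate numbers did not pair the mice, since the correlations of deviations were 0.01, -0.19, -0.07, -0.01 and 0.21.

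Among genes that passed the test in either fit, the sign turned for Nqo1 without the chow libraries of low uniquely mapped share (-0.47) and in females alone (-0.61), for Top2a in females alone (-1.54) and for Col3a1 in males alone (0.10). Values that passed in neither fit also changed sign, and so did list medians near 0, with ranges of -0.58 to 0.41 for matrix genes and -0.74 to 0.76 for mitosis and DNA replication. The cause was not tested. Over values of single genes and list medians, 7863 stayed on their side of the threshold or, for medians, within the spread between livers, 220 no longer passed, 63 newly passed, 70 medians moved and the 4 values given above turned. Called values that moved by over 1.5 times in males alone included Slc1a4 (-1.22), Gbp3 (-1.43), Ifit1 (-0.93), Cyp2b10 (-2.25), Cyp4a14 (6.08) and Tnfrsf10b (2.26). In females alone they included Gsta1 (1.57) and Cyp7b1, whose value is given above. Fits within a sex were added after the data were seen.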
